A study of Mus musculus with 6 samples.

Results

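The 7SK RNA (Rn7sk) and 6 genes whose proteins bind it or are controlled by it (Hexim1, Larp7, Mepce, Cdk9, Ccnt1 and Ccnt2) were described in splenic B-cells at rest and after stimulation with lipopolysaccharide (LPS), a bacterial cell wall component that B-cells sense and respond to. These 7 genes were taken by name from the 46963 gene names of the count table, and all 7 passed the filter on low counts. Rn7sk was selected on its share of the counts, which was high at rest and lower after LPS, so its difference between these states is given as a description without a test. The other 6 were chosen for their place in the pathway.

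RNA came from CD43- splenic B-cells of wt mice, of Eμ-deficient mice, which lack the Eμ enhancer upstream of the constant genes of the immunoglobulin heavy chain (IgH) locus, and of 3′RR-deficient mice, which lack the 3′ regulatory region, the super-enhancer at the other end of that locus. Per the study's methods the Eμ mutant is an EμMAR deletion, both mutants are on a 129 background like the wt mice, and the mice were 8 to 12 weeks old and of both sexes. Each genotype gave 1 resting library and 1 LPS library, 6 in all, each from pooled cells of 2 mice per the labels, so no difference between genotypes within a state has a replicate check. LPS was given at 5 μg per ml for 2 days. For the resting cells, the labels give 2 days in medium alone, whereas the study's methods give cells from before stimulation.

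7SK is a small nuclear RNA that RNA polymerase III transcribes from a single gene and that is among the most abundant noncoding RNAs of a cell. Mepce caps its 5′ end, Larp7 binds its 3′ end and keeps it stable, and Hexim1 bound to 7SK holds the kinase P-TEFb in an inactive complex. P-TEFb consists of the kinase Cdk9 and a cyclin T, either Ccnt1 or Ccnt2, and when released it phosphorylates RNA polymerase II and its pausing factors, which lets paused polymerase elongate. All levels below are those of RNA. The amounts of these proteins and the activity of P-TEFb were not measured in these libraries.

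Genes received between 9111974 and 21998587 counts per library, and spike-in RNAs added to the samples took 4.75% to 7.10% of the counts. Markers of B-cells had a summed level of 1965 to 3036 CPM (counts relative to a scaled library size) at rest and 1688 to 2014 CPM after LPS. The resting libraries held more RNA of other cells: 6 of 6 erythroid markers (3354 to 20137 CPM at rest, 52.9 to 670 after LPS), 6 of 6 myeloid markers (132 to 316, then 14.0 to 25.1) and 6 of 6 T-cell markers (15.1 to 32.5, then 0.81 to 4.12) were called lower after LPS. The erythroid sum was highest in the Eμ-deficient resting library. In bulk RNA, fewer cells of a type and less RNA per cell cannot be told apart. Of the plasma cell markers, 2 of 5 were called higher, and their sum was 546 to 2232 CPM at rest and 581 to 1589 CPM after LPS. Over all genes tested, 19.7% were called higher and 21.1% lower after LPS. In Eμ-deficient against wt, 6 of 6 erythroid and 1 of 5 plasma cell markers were called higher. Of all genes tested, 1.16% were called in that comparison. Cd3e was at 0 CPM in the wt LPS library. The part of these other cells in the differences described here was not tested.

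The sequence of 7SK matters for what the counts of Rn7sk mean, because the table also lists Gm24447, a gene on another chromosome that begins with the same bases. Rn7sk lies at chr9:78175303-78175633 on the minus strand of GRCm38 (mm10) and is 331 nt long. Gm24447 lies at chr15:93234363-93234700 on the plus strand and its RNA is annotated with 338 nt. Bases 1 to 241 are identical in both, so a read from that stretch cannot be assigned to either gene by sequence. From base 242 on they differ, so a read that reaches those bases can be told apart between both genes. Whether the bases of Gm24447 from 242 on also occur elsewhere in the genome was not tested. Only the primary alignment of each read was counted, and how the aligner divided the shared reads between both genes is not known, so their separate counts and their proportion are uncertain. The sequences were taken from the GENCODE M21 transcripts. Capitals mark GATC, the short motif in the 5′ hairpin of 7SK that Hexim1 recognises.
Shared by Rn7sk and Gm24447, bases 1 to 241: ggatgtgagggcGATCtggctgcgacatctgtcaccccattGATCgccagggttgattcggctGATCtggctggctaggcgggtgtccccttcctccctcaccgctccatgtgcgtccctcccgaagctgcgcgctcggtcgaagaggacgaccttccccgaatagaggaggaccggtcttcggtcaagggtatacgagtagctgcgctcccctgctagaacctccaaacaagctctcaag
Rn7sk, bases 242 to 331: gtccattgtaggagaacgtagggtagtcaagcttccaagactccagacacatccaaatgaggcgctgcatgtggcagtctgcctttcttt
Gm24447, bases 242 to 338: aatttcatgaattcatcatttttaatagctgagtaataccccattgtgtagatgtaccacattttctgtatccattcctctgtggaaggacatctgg
GATC, which reads the same on both strands, occurs 3 times in the shared stretch, starting at bases 13, 42 and 64. Of 47881 genes with a transcript of at least that length, 3.371% hold GATC at least that often in their leading 241 bases, and 48.88% hold it at least once. The motif is a match of letters and not a measured binding site.

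Rn7sk was among the 4 most counted genes in each of the 6 libraries. At rest it had 1407209 counts in wt, 1116487 in Eμ-deficient and 2545638 in 3′RR-deficient B-cells, which is 8.74%, 8.33% and 12.25% of the gene counts. After LPS it had 473169, 636446 and 538020 counts, which is 2.15%, 5.82% and 5.90%. The exact (Clopper-Pearson) 95% intervals of these shares reached at most 12.26% and at least 2.14%, and they cover no more than counting error, because reads copied by PCR do not each stand for a molecule. Each LPS library therefore lay below each resting library, and the wt LPS library lay well below the other LPS libraries.

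Scaled with edgeR's TMM method, which sets library sizes by the bulk of the genes, Rn7sk stood at 77403 CPM in wt, 84480 in Eμ-deficient and 123731 in 3′RR-deficient resting B-cells. After LPS it stood at 22617, 59613 and 60435 CPM. The mean was 95205 ± 24957 CPM at rest and 47555 ± 21601 CPM after LPS (SD, n = 3 genotypes each). From rest to LPS, the log2 ratio was -1.77 in wt, -0.50 in Eμ-deficient and -1.03 in 3′RR-deficient B-cells, a mean of -1.10 ± 0.64 (SD, n = 3 genotypes). The log2 fold change over the 6 libraries, fitted with genotype and state as additive terms, was -1.10 with a standard error of 0.38, or 2.15-fold lower.

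**Figure D1:**
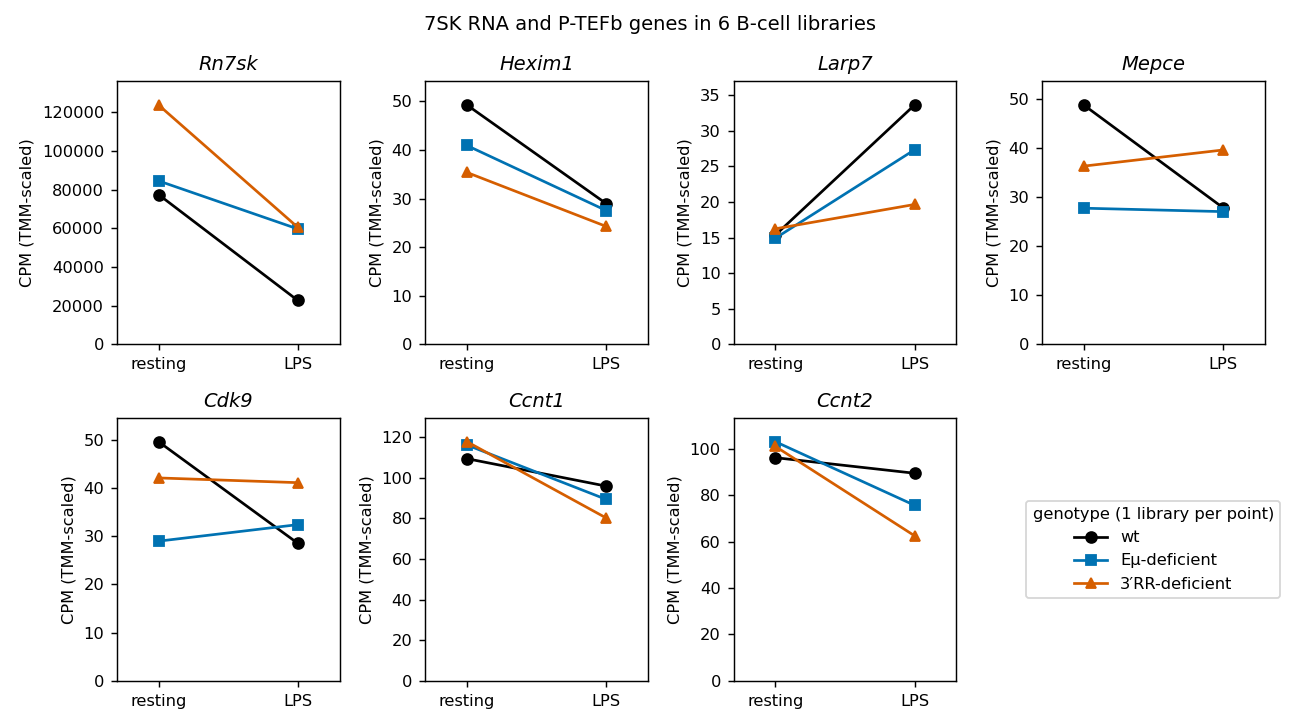
Level of each of the 7 genes, in CPM on TMM library sizes with linear axes that start at 0, at rest and after LPS. Each point is 1 library and lines join libraries of a genotype. Rn7sk is lower after LPS in all 3 genotypes, from 77403 to 22617 CPM in wt, whereas Larp7 is higher in all 3, from 15.3 to 33.7 CPM in wt, although in 3′RR-deficient B-cells its log2 ratio is -0.0071 with protein-coding counts as library size.

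The copy Gm24447 did not keep a fixed proportion to Rn7sk. It had 342474, 181627 and 360373 counts in wt, Eμ-deficient and 3′RR-deficient resting B-cells and 77526, 81144 and 209342 counts after LPS. For each count of Rn7sk this is 0.243, 0.163 and 0.142 counts at rest and 0.164, 0.127 and 0.389 counts after LPS. The highest proportion was that of the 3′RR-deficient LPS library, in which Gm24447 was higher than at rest (log2 ratio 0.42), whereas it was lower after LPS in wt (-2.35) and in Eμ-deficient B-cells (-0.85). The other 193 annotated copies of 7SK in the table together held 150 to 739 counts per library.

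With Rn7sk and its 194 annotated copies added up (the 7SK sum, a measure chosen after the data were seen), the share of the gene counts was 10.9%, 9.69% and 14.0% at rest and 2.50%, 6.56% and 8.20% after LPS. The states again did not overlap. Gm24447 made up 11.3% to 28.0% of this sum and Rn7sk nearly all of the rest. Since Rn7sk was selected on this share, the sum adds no independent result. Of all genes tested, 52.3% did not overlap between the states in CPM. The log2 ratio of the 7SK sum from rest to LPS was -1.87 in wt, -0.55 in Eμ-deficient and -0.75 in 3′RR-deficient B-cells. In 3′RR-deficient B-cells, counting the copies in thus moved the log2 ratio from -1.03 to -0.75.

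Other RNAs of RNA polymerase III gave a scale within each library that needs no normalisation. There were 9.53, 6.83 and 7.73 counts of Rn7sk for each count of Rmrp, the RNA of RNase MRP, in wt, Eμ-deficient and 3′RR-deficient resting B-cells, and 4.02, 6.37 and 6.32 after LPS. Each genotype thus had less Rn7sk per Rmrp after LPS, but the difference was large in wt and small in the mutants. Against Rpph1, the RNA of RNase P, there were 3.85, 5.08 and 6.62 counts of Rn7sk at rest and 1.51, 3.56 and 6.01 after LPS. For the 7SK sum, the ratio to Rpph1 was 4.78, 5.91 and 7.56 at rest and 1.75, 4.01 and 8.35 after LPS, so in 3′RR-deficient B-cells it was higher after LPS. The ratio of the 7SK sum to Rmrp was 11.8, 7.94 and 8.83 at rest and 4.68, 7.19 and 8.77 after LPS. Relative to these RNAs, 7SK was clearly lower after LPS in wt B-cells, while in 3′RR-deficient B-cells the direction depended on whether the copies were counted and on which RNA served as the scale.

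**Figure D2:**
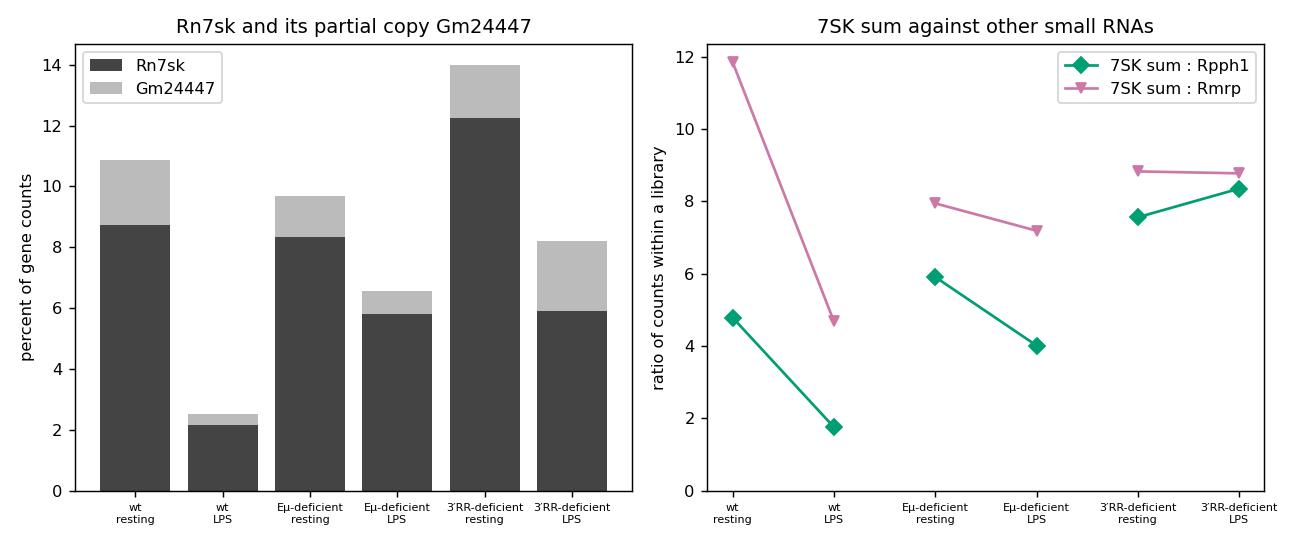
Left, percent of the gene counts of each library held by Rn7sk and, stacked on it, by Gm24447. Right, counts of the 7SK sum per count of Rpph1 and per count of Rmrp in the same library, with lines joining the states of a genotype. Rn7sk takes 8.33% to 12.25% at rest and 2.15% to 5.90% after LPS, and the ratio to Rpph1 goes from 4.78 to 1.75 in wt but from 7.56 to 8.35 in 3′RR-deficient B-cells.

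The ratios of LPS over resting also varied with the GC content of the genes, and the spike-ins spread unequally. Whether sampling of RNAs or the response to LPS gave the trend on GC content was not tested. Which spike-in mixture went into which library is not given in the sources used here. Over 35 spike-ins with at least 100 counts, the log2 ratio of LPS over resting had an SD of 0.78 in wt (range -0.47 to 2.50), 0.13 in Eμ-deficient and 0.63 in 3′RR-deficient B-cells. The median log2 ratio of genes went from 0.45 in the lowest to -0.72 in the highest of 20 bins of GC content in wt, and from -0.64 to 0.08 in 3′RR-deficient B-cells. Rn7sk has a GC content of 58.0%. With the trend on GC content removed from each pair of libraries, its log2 ratio from rest to LPS was -1.15 in wt, -0.52 in Eμ-deficient and -1.20 in 3′RR-deficient B-cells. Rn7sk remained lower after LPS in all 3 genotypes, with a range among genotypes of 0.68 instead of 1.27 on the log2 scale.

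Larp7, whose protein binds the 3′ end of 7SK, rose with LPS at the RNA level. It lies at chr3:127536714-127553349 on the minus strand. It stood at 15.3, 14.9 and 16.2 CPM in wt, Eμ-deficient and 3′RR-deficient resting B-cells and at 33.7, 27.4 and 19.7 CPM after LPS, from 175 to 704 counts per library. All LPS libraries lay above all resting libraries, the resting libraries were close to each other, and the LPS libraries were spread out with wt highest. The fitted log2 fold change was 0.77 (SE 0.25, edgeR adjusted p = 0.0382), or 1.70-fold higher. The log2 ratio was 1.13 in wt (95% interval 0.93 to 1.34), 0.88 in Eμ-deficient (0.61 to 1.14) and 0.28 in 3′RR-deficient B-cells (0.0038 to 0.54), where it became -0.0071 with protein-coding counts as library size.

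Mepce, the gene of the enzyme that caps 7SK, lies at chr5:137781906-137787655 on the minus strand. It stood at 48.8, 27.8 and 36.4 CPM at rest and at 27.9, 27.1 and 39.7 CPM after LPS in wt, Eμ-deficient and 3′RR-deficient B-cells. The states overlapped, and the wt resting library was the highest of the 6. The fitted log2 fold change was -0.24 (SE 0.25, adjusted p = 0.469), which did not pass the test. The log2 ratio was -0.81 in wt, -0.037 in Eμ-deficient and 0.13 in 3′RR-deficient B-cells, and these became -0.15, -0.042 and -0.027 with the trend on GC content removed. Mepce has the highest GC content of the 7 genes, 59.7%, and of the LPS ratios of the 7 genes its ratio in wt was the value that removing the GC trend moved most.

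The RNAs of Larp7 and Mepce, whose proteins bind 7SK and keep it stable, can be compared within each library. There were 0.314, 0.537 and 0.447 counts of Larp7 for each count of Mepce in wt, Eμ-deficient and 3′RR-deficient resting B-cells. After LPS there were 1.21, 1.01 and 0.496. The proportion was higher after LPS in each genotype, by a wide margin in wt and Eμ-deficient B-cells and by a narrow one in 3′RR-deficient B-cells.

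Hexim1, the gene of the inhibitor that 7SK brings to P-TEFb, fell with LPS. It lies at chr11:103116231-103119725 on the plus strand. It stood at 49.3, 40.9 and 35.4 CPM at rest and at 29.0, 27.5 and 24.3 CPM after LPS in wt, Eμ-deficient and 3′RR-deficient B-cells, from 216 to 896 counts per library. The states did not overlap. The order wt, Eμ-deficient, 3′RR-deficient was the same in both states with this scaling, but after LPS the 95% interval of Eμ-deficient over wt included 0, and with spike-in totals as library size both mutants lay above wt after LPS (log2 ratios 0.076 and 0.29). The fitted log2 fold change was -0.63 (SE 0.22, edgeR adjusted p = 0.0437), or 1.55-fold lower. The log2 ratio was -0.77 in wt (95% interval -0.92 to -0.62), -0.57 in Eμ-deficient (-0.78 to -0.36) and -0.54 in 3′RR-deficient B-cells (-0.77 to -0.32). The SD of this ratio among genotypes was 0.12, the lowest of the 7 genes as measured, and 0.081 with the GC trend removed, where Ccnt1 (0.048) and Mepce (0.065) were lower. Hexim2, a paralogue that can also inhibit P-TEFb, stood at 1.8 to 2.9 CPM in the 6 libraries.

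Larp7 relative to Hexim1 was higher after LPS within every pair of libraries. Counts of Larp7 per count of Hexim1 were 0.311, 0.364 and 0.459 at rest and 1.16, 0.993 and 0.810 after LPS in wt, Eμ-deficient and 3′RR-deficient B-cells. The states did not overlap in this ratio, which follows from the levels above, where neither gene overlapped between the states. The ratio needs no library size, but it does not show which of both genes changed. In 3′RR-deficient B-cells the sign of Larp7 itself depended on the library size.

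Cdk9, the gene of the kinase of P-TEFb, lies at chr2:32705784-32713076 on the minus strand. It stood at 49.6, 29.0 and 42.1 CPM at rest and at 28.5, 32.4 and 41.1 CPM after LPS in wt, Eμ-deficient and 3′RR-deficient B-cells. The states overlapped, and the highest and the lowest value of the 6 were both from wt. The fitted log2 fold change was -0.23 (SE 0.26, adjusted p = 0.502), which did not pass the test. In wt the log2 ratio was -0.80 (95% interval -0.95 to -0.65), and -0.74 with the GC trend removed, whereas the intervals of the Eμ-deficient (0.16, from -0.05 to 0.37) and 3′RR-deficient (-0.034, from -0.21 to 0.14) ratios included 0. Cdk9 and Mepce kept close to each other within libraries, with 0.984, 0.958 and 0.864 counts of Mepce per count of Cdk9 at rest and 0.977, 0.835 and 0.964 after LPS.

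The cyclins gave smaller fitted differences than Larp7 and Hexim1. Ccnt1, the cyclin T1 gene at chr15:98538689-98570923 on the minus strand, stood at 109.4, 116.1 and 117.8 CPM at rest and at 95.9, 89.4 and 80.2 CPM after LPS in wt, Eμ-deficient and 3′RR-deficient B-cells. The states did not overlap, but the fitted log2 fold change of -0.37 (SE 0.23, adjusted p = 0.218) did not pass the test. The gene 9330020H09Rik on the other strand of Ccnt1 had 15 to 79 counts per library, and counting used strand.

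Ccnt2, the cyclin T2 gene at chr1:127774164-127808061 on the plus strand, stood at 96.1, 103.0 and 101.0 CPM at rest and at 89.4, 75.6 and 62.5 CPM after LPS. The states did not overlap, and the fitted log2 fold change of -0.41 (SE 0.23, adjusted p = 0.186) did not pass the test. As measured, the log2 ratios of the cyclins were least negative in wt (-0.19 for Ccnt1, -0.10 for Ccnt2) and most negative in 3′RR-deficient B-cells (-0.55 and -0.69). With the GC trend removed they were -0.45, -0.40 and -0.49 for Ccnt1 and -0.61, -0.44 and -0.52 for Ccnt2 in wt, Eμ-deficient and 3′RR-deficient B-cells, and this order was lost. Both cyclins are poor in GC, 44.8% and 42.1%. In the fit with the GC trend removed, a setting chosen after the data were seen, Ccnt2 passed the test (log2 fold change -0.52, adjusted p = 0.0241).

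Of the 6 genes tested for LPS against resting, 2 were called, Larp7 higher and Hexim1 lower. Of all 14600 genes tested, 40.8% were called, 19.7% higher and 21.1% lower, so a share of 2 in 6 is near the background. The states did not overlap for 4 of these 6 genes (Larp7 higher, and Hexim1, Ccnt1 and Ccnt2 lower), beside 52.3% of all genes tested, 25% with LPS higher and 27.3% with LPS lower. Both calls were close to the threshold. Without the Eμ-deficient libraries neither was called (adjusted p = 0.343 for Hexim1 and 0.157 for Larp7), and without the 3′RR-deficient libraries Hexim1 was not (adjusted p = 0.120). The direction of both was kept under all 13 alternatives.

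**Figure D3:**
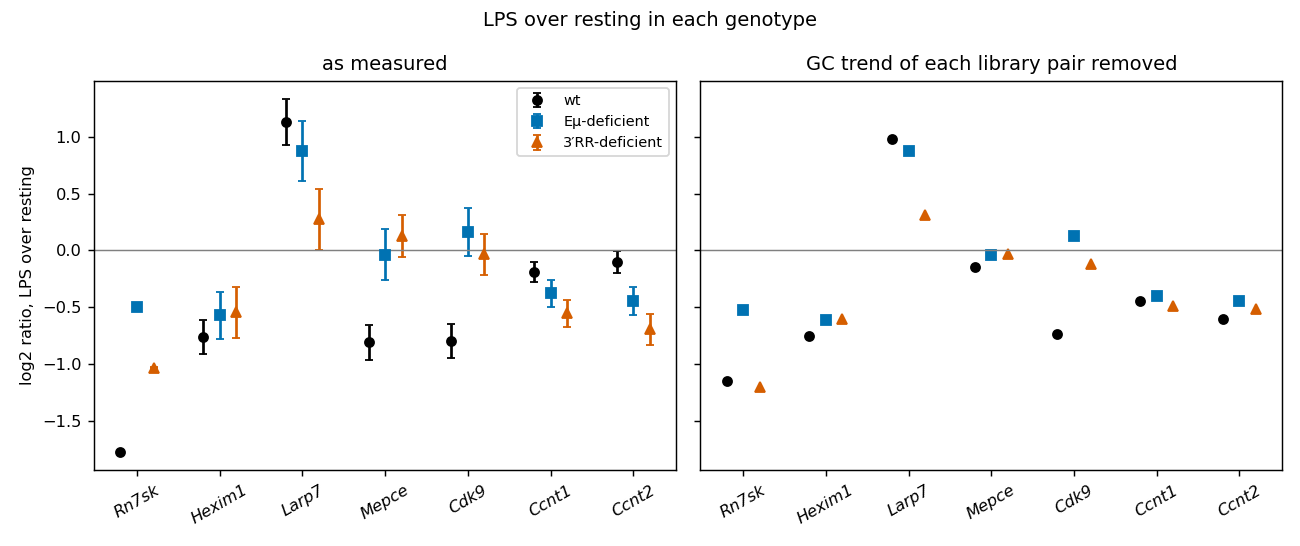
Log2 ratio of LPS over resting for the 7 genes in each genotype, as measured (left, bars are exact 95% intervals for counting error) and with the trend of each pair of libraries on GC content removed (right, no error drawn). Larp7 lies above 0 and Rn7sk, Hexim1, Ccnt1 and Ccnt2 below 0 in all genotypes on both sides (Larp7 in 3′RR-deficient B-cells at -0.0071 with protein-coding counts as library size), and Mepce in wt moves from -0.81 to -0.15.

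Per kilobase of annotated exons, the protein-coding genes of the group lay close together. At rest in wt B-cells, Hexim1 stood at 14.1, Mepce at 13.7, Ccnt1 at 11.9, Cdk9 at 10.8, Ccnt2 at 7.78 and Larp7 at 6.49 CPM per kb. After LPS in wt B-cells, Larp7 stood at 14.2, Ccnt1 at 10.5, Hexim1 at 8.29, Mepce at 7.84, Ccnt2 at 7.24 and Cdk9 at 6.19 CPM per kb. Larp7 was thus the lowest of the 6 levels at rest and the highest after LPS in wt. In 3′RR-deficient B-cells after LPS, Mepce was highest with 11.2 CPM per kb and Larp7 stood at 8.31. Rn7sk stood at 233846 CPM per kb in wt resting and 68330 in wt LPS B-cells. In wt, the levels of Hexim1 and Mepce, neighbours in this order in both states, differed by less than the spread of either gene among genotypes.

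The question whether the deletions of Eμ or 3′RR alter these genes was asked over both states together and then for each state. Rn7sk was higher in the mutants than in wt in each of the 4 comparisons as scaled here, by log2 ratios of 0.13 (Eμ-deficient) and 0.68 (3′RR-deficient) at rest and 1.40 and 1.42 after LPS. For the 7SK sum, the log2 ratios were 0.029 (Eμ-deficient) and 0.55 (3′RR-deficient) at rest and 1.35 and 1.67 after LPS. In the fit over both states, the log2 fold change of Rn7sk was 1.01 for 3′RR-deficient (SE 0.46, edgeR adjusted p = 0.895) and 0.75 for Eμ-deficient against wt (SE 0.46, adjusted p = 0.850). Neither passed the test. The difference from wt in the Eμ-deficient resting library changed sign with the scaling (log2 ratio -0.070 with total counts and -0.69 with spike-in totals as library size). The log2 ratio with the GC trend removed was 0.60 and 0.77 at rest and 1.21 and 0.70 after LPS in Eμ-deficient and 3′RR-deficient B-cells, so the 3′RR-deficient value after LPS was 0.72 smaller than as measured. In that comparison the spike-ins ranged from -3.15 to 1.62 on the log2 scale, with an SD of 1.27, and in Eμ-deficient over wt after LPS the SD was 0.44. Rmrp was also higher in the mutants in all 4 comparisons, with log2 ratios of 0.61 (Eμ-deficient) and 0.98 (3′RR-deficient) at rest. After LPS these were 0.73 and 0.77. Rpph1 stood at -0.28 and -0.11 at rest and at 0.16 and -0.58 after LPS. Per count of Rmrp, Rn7sk at rest was lower in the mutants (6.83 and 7.73) than in wt (9.53). After LPS it was higher (6.37 and 6.32 against 4.02), and per count of Rpph1 it was higher in both states.

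Of the 7 genes, 0 were called in 3′RR-deficient against wt, where 0.678% of all genes tested were called, and 0 in Eμ-deficient against wt, where 1.16% were called. By edgeR, 0 of the 7 had an unadjusted p under 0.05 in either comparison, and DESeq2 also called 0. For the protein-coding genes of the group, the fitted log2 fold changes lay between -0.37 (Hexim1) and 0.12 (Cdk9) in 3′RR-deficient and between -0.45 (Mepce) and -0.011 (Ccnt1) in Eμ-deficient against wt. The error of this fit is the departure from additivity of genotype and state, not the spread between mice, so the p-values compare these libraries.

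Within a state, some single-library differences were larger than counting error. Hexim1 was lower than in wt at rest in Eμ-deficient (log2 ratio -0.27, 95% interval -0.42 to -0.11) and 3′RR-deficient B-cells (-0.48, -0.62 to -0.34). After LPS the ratios were -0.073, whose interval of -0.28 to 0.13 included 0, and -0.26 (-0.49 to -0.029), the latter becoming 0.29 with spike-in totals as library size. Larp7 at rest was close to wt in both mutants, -0.042 and 0.081, with intervals that included 0. After LPS it was lower than wt by log2 ratios of -0.30 in Eμ-deficient (-0.50 to -0.10) and -0.78 in 3′RR-deficient B-cells (-1.02 to -0.53). Both differences were smaller with spike-in totals as library size. The GC trend at the GC content of Larp7 was -0.056 and -0.18 in these comparisons, in the same direction.

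Mepce and Cdk9 were lower than wt at rest in Eμ-deficient (-0.81 and -0.78) and in 3′RR-deficient B-cells (-0.43 and -0.24). With the GC trend removed these became -0.35 and -0.66 in Eμ-deficient and -0.35 and -0.20 in 3′RR-deficient B-cells. After LPS they were higher than wt in 3′RR-deficient B-cells, by 0.51 for Mepce (0.31 to 0.70) and 0.53 for Cdk9 (0.34 to 0.72), but with the GC trend removed the value of Mepce became -0.21. These are differences between single pools of mice. At rest the log2 ratios of the spike-ins had an SD of 0.48 in Eμ-deficient and 0.16 in 3′RR-deficient over wt.

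**Figure D4:**
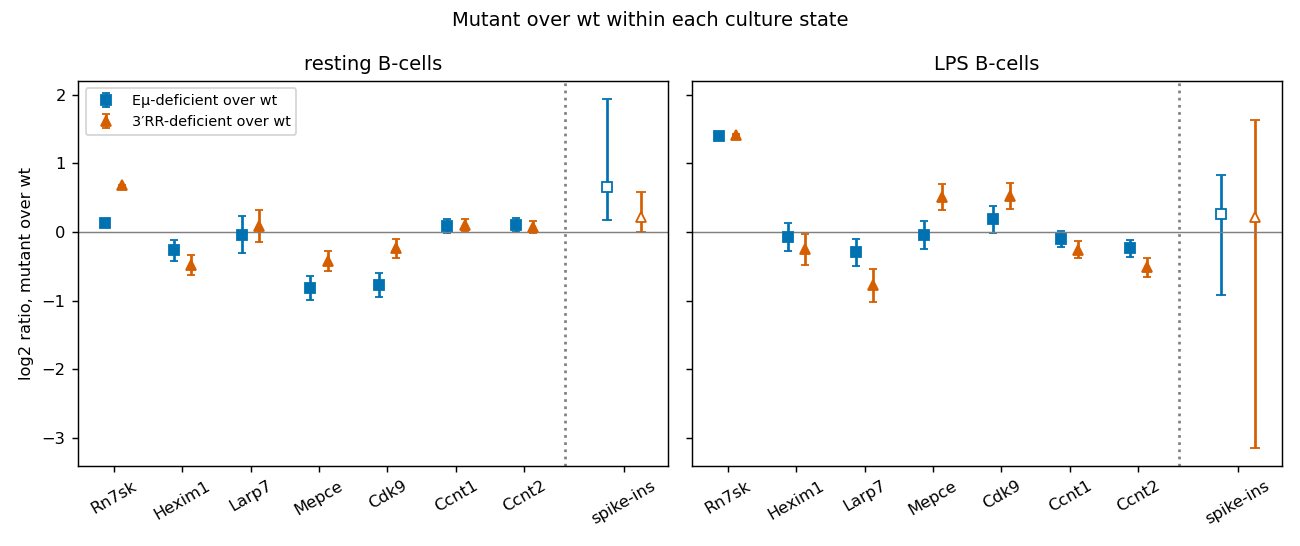
Log2 ratio of each mutant over wt at rest (left) and after LPS (right) for the 7 genes, with exact 95% intervals for counting error. Open symbols on the right of each panel give the median of 35 spike-ins, with bars from the lowest to the highest. After LPS, Rn7sk lies at 1.40 and 1.42, and the spike-ins of the 3′RR-deficient comparison reach from -3.15 to 1.62.

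The wider pathway was described from 10 lists of genes. Of the 89 genes of these lists that were tested, edgeR called 0 in 3′RR-deficient and 0 in Eμ-deficient against wt. Of all genes tested it called 0.678% and 1.16%. The unadjusted edgeR p was under 0.05 for 5 and 4 of the 89. DESeq2 called 0 and 3 of them, and over all genes it also called more than edgeR in both comparisons. These counts are not read as a result about the lists. In LPS against resting, the median log2 fold change of all genes tested was -0.067, and the counts of each list stand against 19.7% of all genes called higher and 21.1% called lower. Nothing is particular to a list on these counts alone. Of 8 genes of other proteins that bind 7SK, Hexim2 (0.28) among them, 4 rose, 0 fell and 4 did not pass the test, with a median of 0.86, and with spike-in totals as library size 1 rose. The genes of the RNA-binding proteins Hnrnpa1 (1.26, edgeR adjusted p = 0.00819), Srsf2 (1.13), Syncrip (1.11) and Ssb (1.04), the La protein that binds new transcripts of RNA polymerase III, rose. Hnrnpa1, which binds 7SK free of P-TEFb and can exchange reads with its processed pseudogenes, stood at 443 to 502 CPM at rest and at 956 to 1455 CPM after LPS.

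Of 8 factors that recruit P-TEFb to genes or release it from 7SK, 4 rose, 0 fell and 4 did not pass the test, with a median of 0.64, beside 19.7% of all genes called higher. With spike-in totals as library size 0 of the 8 were called, and 1 was called without the Eμ-deficient or without the 3′RR-deficient libraries. The 4 were the helicase Ddx21 (1.18), Trim28 (1.04), the splicing factor Srsf1 (0.86) and the phosphatase Ppm1g (0.82). Of 10 genes of the super elongation complex, which carries active P-TEFb, 4 rose and 4 fell, with a median of -0.39, beside 19.7% and 21.1% of all genes. With spike-in totals as library size 2 rose and 3 fell, and with protein-coding counts 2 rose and 5 fell. Without the Eμ-deficient or without the 3′RR-deficient libraries 2 rose and 3 fell. Ell2 rose (1.73, adjusted p = 0.000576), from 20.2 to 41.3 CPM at rest to 56.1 to 147 CPM after LPS. Ell2 is known for its role in the processing of IgH transcripts in antibody-secreting cells. Eaf2, a partner of the Ell proteins, also rose (1.53). Ell3 fell (-2.91), with 4 to 12 counts in the LPS libraries, and so did Aff1, a scaffold of the complex (-1.38).

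Of 6 genes of the pausing factors NELF and DSIF, which P-TEFb phosphorylates, 2 rose, Nelfe (1.17) and Nelfa (0.97), and 0 fell, beside 19.7% of all genes called higher, and with spike-in totals as library size 0 were called. Of 11 other kinases and cyclins of the transcription cycle, 1 rose, Ccnh (1.48), the cyclin of the Cdk7 kinase, and 4 fell, among them Ccnl1 (-1.91), Cdk13 (-0.91) and Ccnk (-0.83), beside 21.1% of all genes called lower. With spike-in totals 1 of them rose and 1 fell, and with the GC trend removed in the fit 4 rose and 5 fell. Of 9 elongation factors (the PAF complex, Spt6, Iws1 and Tcea1), 2 rose, Leo1 (1.36) and Tcea1 (0.77), and 0 fell. That share is near the 19.7% of all genes called higher, and 1 rose with spike-in totals or with protein-coding counts as library size. Counts in these 3 lists moved when a genotype was left out: of the pausing factors 1 rose without the Eμ-deficient or the 3′RR-deficient libraries and 3 without wt, of the kinases and cyclins 1 rose and 1 fell without Eμ-deficient and 2 rose and 2 fell without 3′RR-deficient libraries, and of the 9 elongation factors 1 rose without Eμ-deficient libraries.

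Among 20 factors of the 7SK promoter and of RNA polymerase III, 5 rose, 1 fell and 14 did not pass the test, with a median of 0.22 that became -0.032 with protein-coding counts as library size. The share that rose is near the 19.7% of all genes. With spike-in totals 1 rose and 1 fell, and with protein-coding counts 2 rose and 1 fell. Without the Eμ-deficient or without the 3′RR-deficient libraries 3 rose and 1 fell. The polymerase subunits Polr3k (1.64) and Polr3g (1.07) rose. Maf1, the repressor of RNA polymerase III, fell (-1.13, adjusted p = 0.0144), from 30.7 to 60.8 CPM at rest to 15.7 to 30.7 CPM after LPS.

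Of 10 other small RNAs of RNA polymerase III, 7 were tested and 1 was called, the Y RNA Rny1, which rose (1.96, adjusted p = 0.00746) on 15 to 154 counts per library. Without the wt libraries 2 rose. Rmrp (-0.56, adjusted p = 0.168), Rpph1 (-0.44, adjusted p = 0.318), the 7SL RNAs Rn7s1 (0.35) and Rn7s2 (0.022), the Y RNA Rny3 and the vault RNA Vaultrc5 did not pass the test. Rmrp stood at 8126 to 16005 CPM at rest and 5629 to 9570 CPM after LPS, and Rpph1 at 16634 to 20128 and 10056 to 16753 CPM, so the states overlapped for both. Of 10 small nuclear and other short noncoding RNAs, 4 were tested and 0 were called by edgeR, with 2 at an unadjusted p under 0.05, while DESeq2 called 1 lower, as did edgeR when any 1 genotype was left out. Rnu11 stood at -0.84 (edgeR adjusted p = 0.0781).

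Of 6 short-lived transcripts that need P-TEFb, 5 fell, 0 rose and 1, Mcl1 (0.15), did not pass the test, with a median of -1.67, beside 21.1% of all genes called lower. Fos fell most (-5.92, adjusted p = 6.7e-05), from 213 to 430 CPM at rest to 2.3 to 12.8 CPM after LPS, followed by Junb (-2.84), Egr1 (-1.74) and Myc (-1.60). These are immediate early genes that respond to handling and to stimulation within minutes to hours. The LPS libraries were made after 2 days, and the labels also give 2 days in medium for the resting cells, unlike the study's methods. The cause of these falls was not tested.

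**Figure D5:**
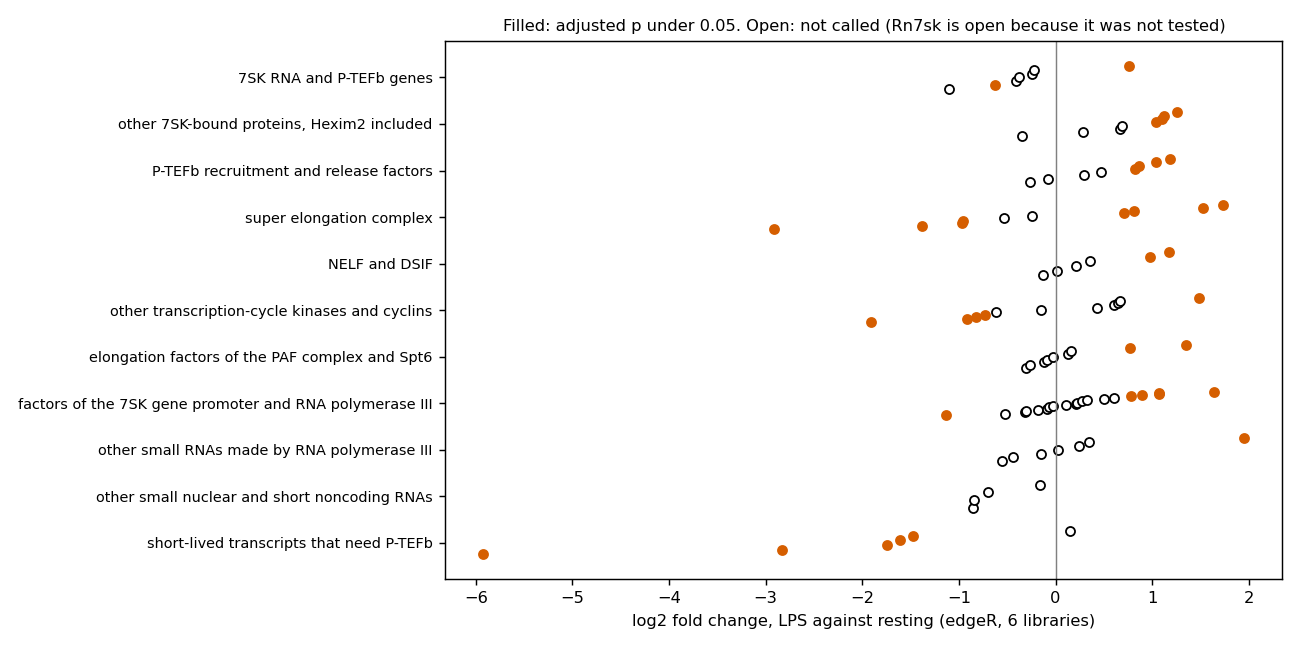
Fitted log2 fold change of LPS against resting for each gene of the 7SK and P-TEFb group and of 10 lists of related genes, 1 point per gene. Filled points passed the test (edgeR adjusted p under 0.05) and open points did not, Rn7sk being open because it was not tested. Genes of other proteins bound to 7SK lie mostly to the right (median 0.86) and the short-lived transcripts mostly to the left (median -1.67).

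The genes whose pattern across the 6 libraries was most like that of Rn7sk were found by the root mean square difference of log2 CPM after each gene's mean was subtracted, over 13928 genes with counts in every library. The 5 closest were the small nuclear RNA Gm22513 (0.140), the small nucleolar RNA Snora23 (0.159), the pseudogene Gm7701 (0.160), Gm26315 (0.181) and Parp3 (0.182), a poly(ADP-ribose) polymerase. Gm26315 is a copy of 7SK, 99.58% identical over 238 nt, with 36 to 160 counts, and Gm7701 had 7 to 33 counts per library. The other abundant RNAs of RNA polymerase III were farther away, Rmrp at 0.377 (rank 228 of the 13928 genes) and Rpph1 at 0.708 (rank 3822). So was Gm24447 at 0.548 (rank 1574). These values come from 6 libraries that share the same state difference, and they describe likeness in these libraries.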

How the data were processed

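Total RNA of CD43- splenic B-cells was depleted of ribosomal RNA and made into stranded libraries, and paired reads of 150 nt were sequenced. The authors mapped them to mm10 with STAR 2.4.0a and counted fragments per gene name with featureCounts (Subread 1.4.6-p1, Ensembl release 77), by strand, with multi-mapping reads counted at their primary alignment. The authors deposited raw counts in 6 columns, 1 per library. The labels and the study's methods differ on the RNA extraction, on the number of pools and on the LPS unit in a protocol text, where 5 μg per ml is used here.

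Of 47055 names, 92 are spike-ins, which entered neither library sizes nor tests, and 44131 were found in GENCODE M21, which gave positions, lengths and GC content. The 14600 genes that reached 10 counts in 2 or more libraries were fitted with edgeR 4.0.16 (R 4.3.3, TMM, quasi-likelihood test, genotype and state as additive terms, Benjamini-Hochberg, threshold 0.05). The script was tested on simulated data. Ratios of single libraries carry exact conditional binomial 95% intervals (scipy 1.17.1), which cover counting error only. Copies of 7SK were found with blastn (BLAST+ 2.17.0, e-value at most 1e-10). The GC trend is the median log2 ratio in 20 bins. DESeq2 1.42.0, other scalings and filters, and leaving out each genotype were alternatives.

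The genes and lists were chosen with earlier results of these data known. Of a list, at most the 4 called genes with the largest change are named, and every tested small RNA of RNA polymerase III. Some results that this rule covers are not reported here. Mcl1, Hexim2, Gm24447, Rnu11 and Cd3e were named after their values were seen.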

Additional observations from a re-analysis of the deposited data

Results flagged for a closer look

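Several ratios of single libraries had opposite signs in groups that were compared the same way. Each such difference was not tested, since each group has 1 library. The interval of a ratio that is said to include 0 is the exact 95% interval for counting error.

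From rest to LPS, the log2 ratio of Mepce was -0.81 in wt and -0.037 in Eμ-deficient but 0.13 in 3′RR-deficient B-cells (-0.027 with the GC trend removed), and the intervals of both mutants included 0. That of Cdk9 was -0.80 in wt and -0.034 in 3′RR-deficient but 0.16 in Eμ-deficient B-cells, and the intervals of both mutants included 0.

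In 3′RR-deficient over wt, the log2 ratio at rest and after LPS was 0.081 (interval included 0) and -0.78 for Larp7, -0.43 and 0.51 for Mepce, -0.24 and 0.53 for Cdk9, 0.11 and -0.26 for Ccnt1, and 0.071 (interval included 0) and -0.52 for Ccnt2. The intervals of Mepce, Cdk9 and Ccnt1 excluded 0 in both states, but signs turned with the processing. After LPS, Mepce was -0.21 with the GC trend removed, Ccnt1 was 0.29 with spike-in totals as library size and 0.10 with the GC trend removed, and Ccnt2 was 0.031 and 0.12. At rest, Ccnt1 was -0.084 with total counts and -0.14 with spike-in totals, Ccnt2 was -0.12 and -0.17, and Larp7 was -0.11 and -0.16. In Eμ-deficient over wt, it was -0.78 and 0.18 (interval included 0) for Cdk9, 0.086 and -0.10 for Ccnt1 (both intervals included 0), and 0.10 (interval included 0) and -0.24 for Ccnt2. With the GC trend removed, the values at rest were -0.063 for Ccnt1 and -0.16 for Ccnt2. In 3′RR-deficient over wt after LPS, the spike-ins ranged from -3.15 to 1.62, and the part of that spread in these signs was not tested.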

How the results depend on the processing

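Genotype and state have 1 library per combination, so every p-value rests on the departure from additivity, and depth limits Larp7 and Hexim1 to 175 counts or more per library. The labels give no replicate numbers, so libraries could be paired by genotype only. Genotype, a term of the fit, already sets each LPS library against the resting library of its genotype, and without it 5421 genes were called. In LPS against resting, 5962 genes were called, 2883 higher and 3079 lower, and 3960 to 6655 when a genotype was left out (3960 without the Eμ-deficient libraries). The split became 1454 higher and 2900 lower with spike-in totals and 2146 and 4270 with protein-coding counts as library size, which moved the median of all genes from -0.067 to -0.28 and -0.32. Of the 6 members tested, 2 were called, but 1 with total counts, without a filter and with DESeq2, 0 with spike-in totals, and 0 to 3 when a genotype was left out (0 without Eμ-deficient, 1 without 3′RR-deficient, 3 without wt libraries). Hexim1 was called in 8 of 13 alternatives (adjusted p 0.00787 to 0.343), Larp7 in 9 (0.0167 to 0.364) and Ccnt2 in 3 (0.0241 to 0.666). Genotype calls of members stayed at 0 under every alternative run. Over all genes, 3′RR-deficient against wt gave 99 calls (25 higher, 74 lower), 170 with spike-in totals (60 and 110), 339 without a filter, 178 with DESeq2 and 177 without the Eμ-deficient libraries. Eμ-deficient against wt gave 170 (133 and 37, or 131 and 76 with spike-in totals), 605 without a filter, 340 with DESeq2, 393 without the 3′RR-deficient libraries and 258 with protein-coding counts.

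Signs turned as follows, and the cause was not tested. LPS against resting was -0.24 for Mepce and -0.23 for Cdk9, and when a genotype was left out it ranged from -0.44 to 0.069 and from -0.34 to 0.085, the positive values without wt. In 3′RR-deficient against wt, Mepce was -0.066 with total counts, -0.032 without a filter, -0.0027 without Eμ-deficient libraries, -0.030 with protein-coding counts and -0.29 with the GC trend removed, Ccnt1 was 0.063 with spike-in totals and 0.058 with the GC trend removed, and Ccnt2 was 0.042 with the latter. In Eμ-deficient against wt, Ccnt1 was 0.020 with at least 50 counts and 0.015 with protein-coding counts. Among ratios of single libraries, Rn7sk in Eμ-deficient over wt at rest was -0.070 with total counts and -0.69 with spike-in totals, Ccnt1 in 3′RR-deficient over wt at rest -0.084 and -0.14, and Larp7 in 3′RR-deficient LPS over resting -0.0071 with protein-coding counts. In 3′RR-deficient over wt after LPS, spike-in totals gave 0.29 for Hexim1, 0.29 for Ccnt1 and 0.031 for Ccnt2, and removal of the GC trend gave -0.21 for Mepce, 0.10 for Ccnt1 and 0.12 for Ccnt2. With its copies counted, the share of Rn7sk was 10.9%, 9.69% and 14.0% at rest and 2.50%, 6.56% and 8.20% after LPS in wt, Eμ-deficient and 3′RR-deficient B-cells. The 7SK sum, protein-coding counts as library size and the GC offset in the fit were chosen after seeing the data.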
